A study of Mus musculus with 6 samples.

Results

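The genes described here are 50 genes of mitosis: the mitotic cyclins and kinases, the spindle checkpoint, the centromere and kinetochore, the mitotic kinesins, and the machinery of cytokinesis and chromosome condensation. They were chosen by name, from a list of gene symbols, among the 31617 genes of the table of pancreatic macrophages, and all 50 were found there. Their mean levels put 48 of them among the 10000 genes with the highest mean over the libraries, called expressed genes below, and Kifc1 and Cenpk fell outside. RNA was sequenced from macrophages of wild type Balb/c mice, sorted from the pancreas by 3 surface proteins (CD45+CD11b+F4/80+), namely the leukocyte protein CD45, the myeloid integrin CD11b and F4/80, which macrophages carry. Acute pancreatitis was set off with 10 caerulein injections, 1 per hour (caerulein mimics cholecystokinin and drives acinar cells to release enzymes), and macrophages were taken on days 1, 3, 4, 5 and 7. The mock group, called day 0, had saline injections according to the design text, while its own label gives no treatment. Day 4 comes from the label of its sample alone. The labels set all 6 libraries, mock included, in a setting they abbreviate as RAP and do not spell out. Neither age nor sex is given in the sources used here. Each day is a single library from a pool of more than 3 mice. Differences between days therefore have no replicate check, and no p-value is given for them.

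A cell enters mitosis when cyclin B binds and activates the kinase Cdk1, condensins compact the chromosomes, and the spindle attaches to them at the kinetochores. The spindle checkpoint holds the anaphase-promoting complex in check until every kinetochore is attached. The complex, with its activator Cdc20, then marks securin and the cyclins for destruction, sister chromatids part, and the cell divides in cytokinesis. Transcripts of these proteins are made mostly in G2 and mitosis and are scarce in resting cells. Tissue macrophages can renew themselves by division in place, while monocytes that arrive from blood have mostly left the cell cycle. In bulk RNA, fewer dividing cells and less of these transcripts per cell cannot be told apart.

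Library depth ran from 14853084 reads on day 4 to 25726455 on day 3. Reads of the 3 genes behind the sort were found in each library, and their normalised read counts summed to 25521 in mock and 25846, 21323, 21644, 35740.5 and 22320.5 on days 1, 3, 4, 5 and 7. Itgam, which encodes CD11b, had 1900.4 in mock and 2627, 1409, 678, 687 and 1097 on days 1, 3, 4, 5 and 7, so that it was lower than mock on days 4 and 5 (-1.46 and -1.44). The F4/80 gene, Adgre1, stood at 11750.1 in mock and 10592, 12632, 11541, 23702 and 9671 on days 1, 3, 4, 5 and 7, with its highest level on day 5. Summed levels of 8 macrophage marker genes were 813408 in mock and 499123, 887671, 1439050.0, 1010970.0 and 461493 on days 1, 3, 4, 5 and 7, and each of the 8 was above the floor of 3 reads in every library. Most of that sum was Lyz2, a lysozyme gene, with 670810.0 in mock and 358217, 741722, 1241210.0, 729459 and 317968 on days 1, 3, 4, 5 and 7. The median log2 ratio of the 8 genes to mock was -0.34 on day 1, with 2 genes at least 2-fold higher and 3 lower, and 1.01 on day 5, with 4 higher and 0 lower. Of the expressed genes 6.68% were that much higher and 9.58% lower on day 1, and 3.68% higher and 6.4% lower on day 5. The sums of 6 monocyte marker genes were 43323 in mock and 129797, 48486, 21236, 17544 and 23022 on days 1, 3, 4, 5 and 7. A normalised read count is the number of reads of a gene divided by a size factor of its library. Values are not per length, so levels are compared between libraries for 1 gene and not between genes.

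All 50 mitotic genes had their highest level in the library of day 3, and 45 of the 50 were at least 2-fold below mock on each of days 1, 4 and 5, against 9.58%, 8.11% and 6.4% of the expressed genes. Bub3 and Pttg1 were above mock on day 1, Cenpa on day 4 and Bub3 on day 5. Of all reads, the share that fell on the 50 genes was 1521 in mock and 430.5, 3847, 547, 482 and 868 on days 1, 3, 4, 5 and 7, in reads-per-million (RPM). That of day 3 had a 95% exact Poisson interval of 3823 to 3871 RPM, and that of mock 1503 to 1539. These and all other intervals given here are for counting error alone, because several reads can come from 1 molecule and no pool of mice was repeated. Of the expressed genes, 19.4% had their highest value on day 3. Mock came second in 47 of the 50 genes and day 7 next in 40. The lowest level was on day 1 in 34 genes (68%), on day 4 in 8 (16%), on day 5 in 5 (10%) and on day 7 in 3 (6%). Of the expressed genes 19.37%, 18.99%, 4.37% and 34.66% had their lowest value on these days, so the share of day 4 was near the background. Day 3 was highest in all 50, and mock second in 47, also with equal library totals, with libraries centred on the median expressed gene, with upper-quartile scaling and with quantile normalisation. The genes with their lowest level on day 1 numbered between 23 and 39 under these scalings.

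**Figure D1:**
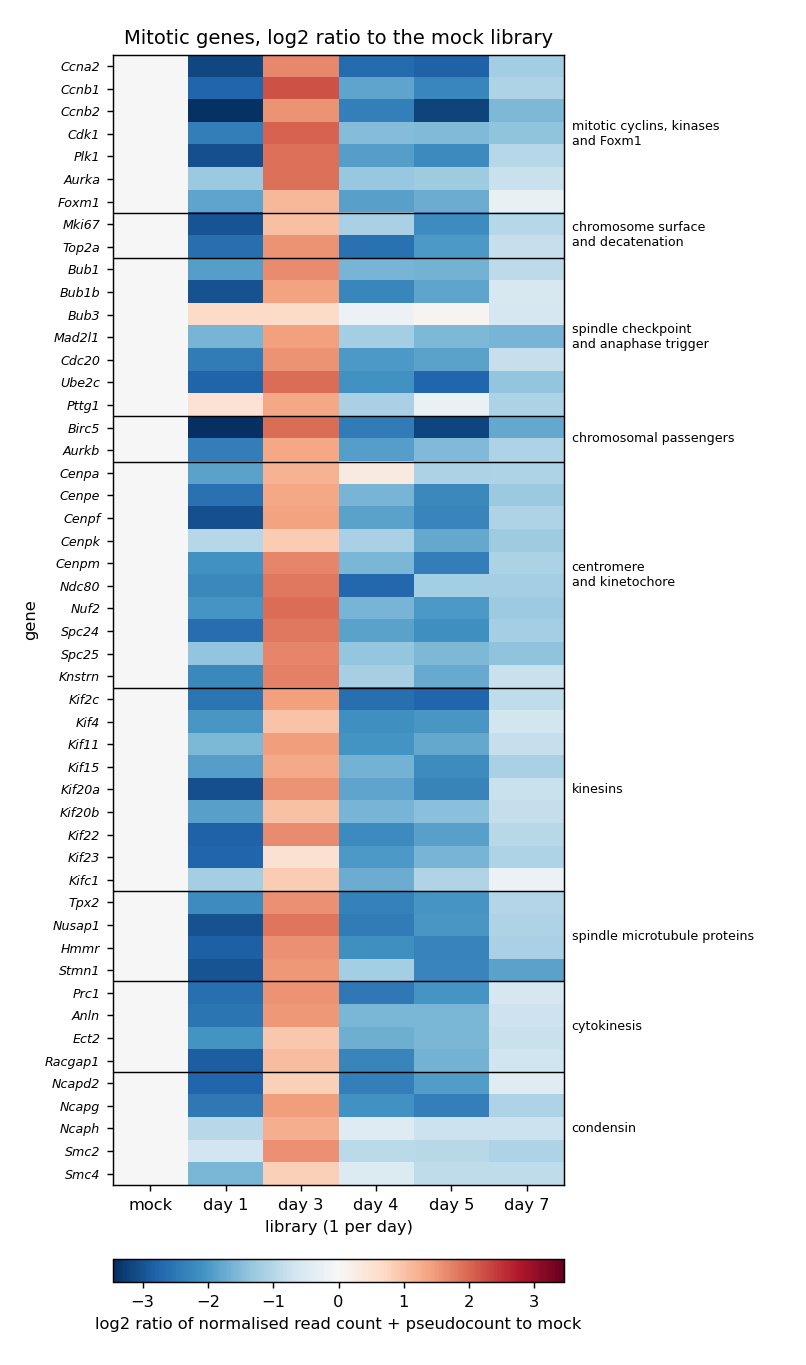
Log2 ratio of each of the 50 genes (rows, by role) to the mock library (columns are the 6 libraries, 1 per day), with a pseudocount of 17.8 added to the normalised read counts. The day 3 column is above mock in all 50 rows, and the columns of days 1, 4 and 5 are below mock in 48, 49 and 49.

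The promoters of these genes are shown because the members shared a course over the days and because a pair of short elements is known from promoters of the late cell cycle. One is the cell cycle homology element, TTTGAA, bound by the Lin54 subunit of the MuvB complex, and the other is the CCAAT box, bound by the trimeric factor NF-Y. RefSeq promoter windows of the build GRCm38.p6, from 250 bases before the start site to 50 after, were found for 42 of the 50 genes, in 47 windows. The start site of the window was the RefSeq start of the gene in 22 of the 47. All distances are from the start site of the window. The stretches below are the 120 bases before the start site on the gene's own strand, 5′ to 3′. Capitals mark TTTGAA, its variant TTCGAA and CCAAT, each on either strand, so that TTCAAA and ATTGG are the same elements read on the other strand. The first 5 genes followed the common course, and Bub3 and Mad2l1 are set beside them as a gene that departed from it and one with no match. They are examples only, and genes with no match that followed the common course closely are not printed but are named below.
Ccnb2: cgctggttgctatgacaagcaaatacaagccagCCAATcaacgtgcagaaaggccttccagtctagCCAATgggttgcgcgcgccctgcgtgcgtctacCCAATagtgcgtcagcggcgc
Cdk1: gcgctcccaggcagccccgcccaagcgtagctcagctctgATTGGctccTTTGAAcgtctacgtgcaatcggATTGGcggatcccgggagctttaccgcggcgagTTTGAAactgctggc
Cdc20: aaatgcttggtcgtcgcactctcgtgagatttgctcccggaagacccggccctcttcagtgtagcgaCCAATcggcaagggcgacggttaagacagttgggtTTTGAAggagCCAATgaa
Top2a: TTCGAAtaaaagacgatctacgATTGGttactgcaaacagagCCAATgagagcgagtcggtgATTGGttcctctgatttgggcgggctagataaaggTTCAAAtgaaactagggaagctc
Ube2c: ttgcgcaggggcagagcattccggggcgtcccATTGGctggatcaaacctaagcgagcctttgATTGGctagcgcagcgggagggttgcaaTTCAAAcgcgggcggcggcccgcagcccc
Bub3: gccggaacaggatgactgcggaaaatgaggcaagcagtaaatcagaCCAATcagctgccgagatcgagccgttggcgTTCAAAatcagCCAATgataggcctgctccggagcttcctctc
Mad2l1: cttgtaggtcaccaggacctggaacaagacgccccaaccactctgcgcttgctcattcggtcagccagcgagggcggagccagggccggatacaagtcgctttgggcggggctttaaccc
These stretches lie at chr9:70421555-70421674 (minus strand) for Ccnb2, chr10:69352913-69353032 (minus) for Cdk1, chr4:118437344-118437463 (minus) for Cdc20, chr11:99024190-99024309 (minus) for Top2a, chr2:164769809-164769928 (plus) for Ube2c, chr7:131560250-131560369 (plus) for Bub3 and chr6:66535101-66535220 (plus) for Mad2l1. In Cdc20 the first base of TTTGAA lay 18 bases before the start site and in Cdk1 15 bases before it. Ccnb2 holds 3 CCAAT boxes in the stretch, and the 2 matches to TTTGAA in its window lie outside the stretch.

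TTTGAA, on either strand, was found in the windows of 30 of the 42 genes (71.4%), against 20.2% of the 27025 genes of the whole promoter table. TTCGAA was found in 4 of the 42 genes (9.52%), against 1.80% of all. CCAAT on either strand was found in 30 of 42 (71.4%), against 41.1% of all genes, and 2 or more CCAAT boxes in 21 (50%), against 13.3%. TTTGAA and CCAAT stood together in 25 of 42 genes (59.5%), against 7.97% of all genes. The elements differed in place. TTTGAA within 50 bases of the start site on either side was in 27 of 42 genes (64.3%), against 5.72% of all, while CCAAT within the 150 bases before the start site was in 29 (69.0%), against 28.0%. No match to any of these letters was found in the windows of 7 genes, Birc5, Knstrn, Mad2l1, Ncaph, Nuf2, Nusap1 and Pttg1. Of these, Birc5, Knstrn, Nuf2 and Nusap1 had a Pearson r of at least 0.95 with the median of the other members over the 6 libraries. Mad2l1 (0.92), Ncaph (0.92) and Pttg1 (0.55) did not. A match and the common course did not always go together. Bub3 and Cenpa, which departed from the common course, hold both elements. Birc5, with the widest range of all 50 when the pseudocount is added, holds neither. A match is a description of the letters and shows neither binding nor a cause.

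**Figure D2:**
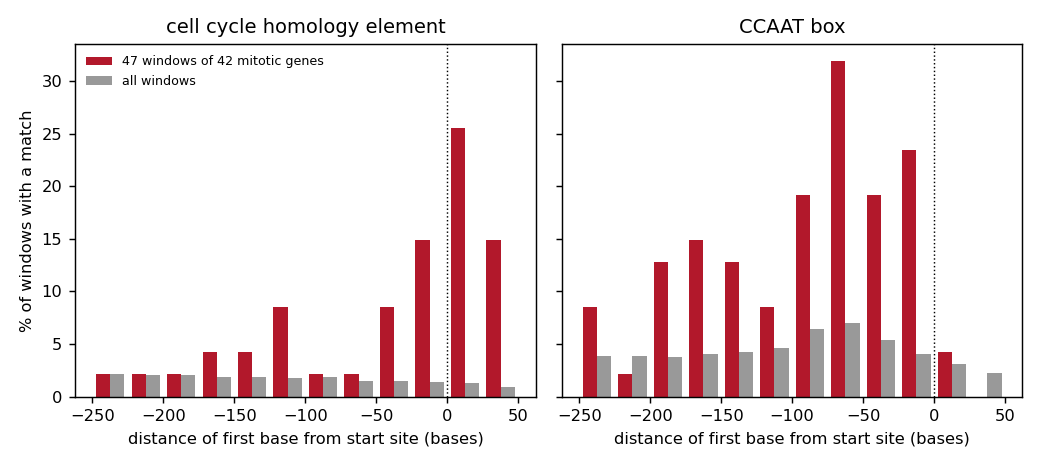
Share of promoter windows with a match in each 25-base bin by distance of its first base from the start site, for TTTGAA (left) and CCAAT (right), in 47 windows of 42 mitotic genes and in all 32851 windows. TTTGAA is most frequent among the mitotic genes in the bin from 0 to 24 (25.5% of windows, against 1.31% of all), and CCAAT in the bin from -75 to -51 (31.9%, against 6.99%).

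On day 1 the mitotic genes were lower than in mock in 45 of 50 cases at 2-fold or more, and 0 were 2-fold higher. The log2 ratios, with a pseudocount of 17.8 that understates the ratios of low genes, had a median of -2.40. Among the expressed genes 9.58% were at least 2-fold lower and 6.68% at least 2-fold higher on that day, with a median of 0.15. The 5 genes within 2-fold were Bub3, Pttg1, Ncaph, Smc2 and Cenpk, and 2 of them, Bub3 and Pttg1, were above mock. Cenpk, at -0.98, and Ncaph, at -0.95, lay just inside the limit.

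On day 3 the same comparison ran the other way, with 42 of 50 genes above mock by 2-fold or more and 0 below (median 1.498). The background on that day was 3.73% of expressed genes higher and 5.71% lower (median 0.08). All 50 were above mock, from 0.52 for Kif23 to 2.21 for Ccnb1, and the counting interval of the ratio lay above 0 for each. The 8 genes under 2-fold were Kif23, Bub3, Smc4, Ncapd2, Kifc1, Cenpk, Ect2 and Kif4, the last at 0.98, while Kif20b at 1.01 and Mki67 at 1.03 lay just past it. Against day 1, 48 of 50 were at least 2-fold higher on day 3, against 9.72% of expressed genes (8.21% were lower), with a median of 3.92. The exceptions were Bub3 and Pttg1.

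In the library taken on the next day, day 4, 48 of the 50 genes were at least 2-fold lower than on day 3, with a median of -3.26. Of the expressed genes 5.89% were that much lower and 3.23% that much higher. The 2 others, Bub3 at -0.86 and Cenpa at -0.88, were lower too, but by less than 2-fold. Against mock 45 were at least 2-fold lower on day 4 (median -1.84), against 8.11% of expressed genes lower and 3.31% higher. Day 5 had likewise 45 genes at least 2-fold lower than mock (median -1.86), against 6.4% of expressed genes lower and 3.68% higher. From day 4 to day 5 the genes scattered around no change, with 1 gene at least 2-fold higher, 3 lower and a median of -0.07. Among the expressed genes 5.4% were higher and 3.11% lower in that step, so the members' shares of 2% and 6% were near the background.

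On day 7 the genes lay between their level of day 5 and that of mock in most cases. Against mock 26 of 50 were at least 2-fold lower and 0 higher (median -1.04), and 6.57% of expressed genes were at least 2-fold lower and 1.96% higher. Many of the 50 lay close to the 2-fold limit, so the count depended on scaling and pseudocount: it was 10 with equal library totals, 10 with upper-quartile scaling and 8 with a pseudocount 5 times as large. With equal library totals the split of all expressed genes turned to 5.62% higher and 2.96% lower. All 50 genes were below mock, and the median of the 50 was between -1.10 and -0.77 under these settings and the others tried. Against day 5, 22 genes were at least 2-fold higher on day 7 (median 0.96), against 5.07% of expressed genes higher and 4.68% lower, and this count was 34 with equal library totals and 2 with a pseudocount 5 times as large.

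**Figure D3:**
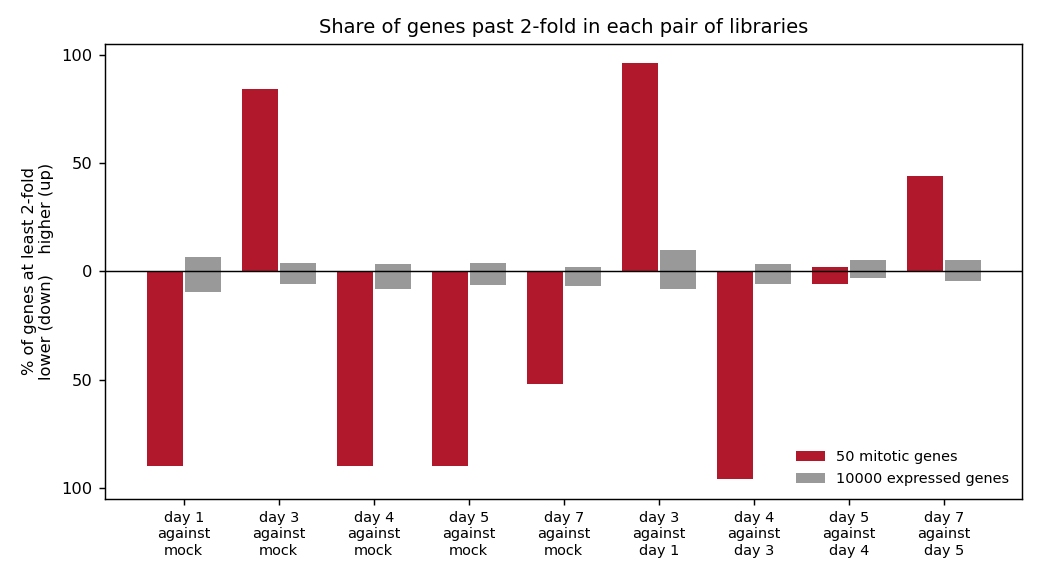
Share of the 50 mitotic genes and of the 10000 expressed genes at least 2-fold higher (bars up) or lower (bars down) in each of 9 pairs of libraries. The mitotic genes exceed 80% in 1 direction in 6 of the pairs, with 84% higher on day 3 and 90% lower on days 1, 4 and 5 against mock, and reach 96% in the steps into and out of day 3.

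The mitotic cyclins, their kinases and the transcription factor Foxm1 had the largest median ratio on day 3 among the 9 roles, with 7 of 7 genes at least 2-fold above mock (median 1.90) and 7 of 7 below it on each of days 1, 4 and 5. Ccnb1, the main cyclin partner of Cdk1 at entry into mitosis, stood at 413 in mock and 46.8, 1971, 104, 72.8 and 187 on days 1, 3, 4, 5 and 7 (normalised reads). The day 3 level was 4.78 times that of mock (interval of the log2 ratio without pseudocount 2.11 to 2.41). Ccnb2, a second B-type cyclin, had 836 in mock and 62.8, 2495, 149, 75.9 and 271 on days 1, 3, 4, 5 and 7. It stood 13.3-fold below mock on day 1 (interval -4.17 to -3.33) and 2.99-fold above it on day 3. Both B-type cyclins had the order day 3, mock, day 7, day 4, day 5 and day 1.

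Ccna2, the cyclin of S phase and early mitosis, followed with 541 in mock and 45.5, 1747, 69.9, 63.4 and 227 on days 1, 3, 4, 5 and 7. Cdk1, the kinase itself, had 512 in mock and 83.7, 2159, 171, 167 and 185 on days 1, 3, 4, 5 and 7. With the deposited size factors and unlike the cyclins, Cdk1 was at nearly the same level on days 4, 5 and 7. Its ratio of day 7 to day 5 was 0.13, with an interval of -0.16 to 0.45. That ratio depends on scaling, since equal library totals moved the median ratio of all expressed genes by 0.41 in that comparison. Plk1, the polo-like kinase that promotes mitotic entry and spindle formation, had 208 in mock and 9.85, 823, 42.7, 31.2 and 95.4 on days 1, 3, 4, 5 and 7, and its day 1 value rested on 8 reads. Aurka, the Aurora kinase of the spindle poles, had 289 in mock and 109.5, 1137, 106, 112 and 163 on days 1, 3, 4, 5 and 7. It was the member of this group least reduced on day 1, at -1.27.

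Foxm1, which drives transcription of many G2 and mitosis genes together with the MuvB complex, had 105.05 in mock and 17.2, 254, 15.5, 19.8 and 85.3 on days 1, 3, 4, 5 and 7. On day 7 it was back near mock, with an interval of the log2 ratio of -0.70 to 0.10, so the difference was not detectable at this depth. The rest of that transcription machinery, a list of 22 regulators of mitotic genes with 19 expressed, had a median of 0.45 on day 3 against mock, with 1 gene at least 2-fold higher and 0 lower. Of all expressed genes 3.73% were that much higher and 5.71% lower, so 1 of 19 was near the background. The gene past 2-fold was Mybl2, the B-Myb partner of MuvB, with 90.7 in mock and 17.2, 244, 20.7, 20.8 and 70.1 on days 1, 3, 4, 5 and 7. Lin54, which contacts TTTGAA, had 405 in mock and 306, 488, 238, 320.3 and 306 on days 1, 3, 4, 5 and 7. Nfya, the subunit of NF-Y that binds the CCAAT box, had 89.8 in mock and 322, 161, 162, 152 and 61.7 on days 1, 3, 4, 5 and 7, which puts its highest level on day 1, when the mitotic genes were lowest. Between other days more of the 19 moved: 5 were at least 2-fold higher on day 3 than on day 1 and 1 lower, against 9.72% and 8.21% of expressed genes. From day 3 to day 4, 5 were lower and 0 higher, against 5.89% and 3.23%. E2f3, E2f7 and E2f8 were outside the expressed set. Of these, E2f7 and E2f8 were highest on day 3 and E2f3 on day 1. E2f7 had 69 reads in mock and 8, 201, 3, 9 and 61 on days 1, 3, 4, 5 and 7, and E2f8 had 97 and 23, 258, 15, 21 and 69.

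Mki67 and Top2a are the usual markers of dividing cells. Mki67, which coats mitotic chromosomes and keeps them apart, had 738 in mock and 77.5, 1527, 329.9, 149.8 and 361 on days 1, 3, 4, 5 and 7. Among the 50 genes it was 1 of 3 that were at least 2-fold lower on day 5 than on day 4 (-1.05, interval of the ratio without pseudocount -1.44 to -0.84). Top2a, the topoisomerase that untangles sister chromatids, had 649 in mock and 91.1, 1952, 94.5, 149.8 and 365 on days 1, 3, 4, 5 and 7. In that step it stood on the other side of 0, at 0.58 with an interval of 0.25 to 1.09.

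Genes of the spindle checkpoint and of the anaphase trigger were split between members that followed the common course and a pair that did not. Cdc20, the activator of the anaphase-promoting complex, had 585 in mock and 95.99, 1752, 136, 151 and 332 on days 1, 3, 4, 5 and 7, and its course over the 6 libraries was the closest of all 50 to the median of the others (Pearson r = 1.00). Ube2c, the ubiquitin-conjugating enzyme that works with the complex, had 558 in mock and 66.5, 2158, 116, 68.6 and 205 on days 1, 3, 4, 5 and 7. Bub1 and Bub1b, the checkpoint kinase and its relative in the mitotic checkpoint complex, had log2 ratios to mock of -1.91 and -3.02 on day 1 and of 1.64 and 1.38 on day 3. Mad2l1, the checkpoint protein that captures Cdc20, had 435 in mock and 130.4, 1189.6, 184, 137 and 130.1 on days 1, 3, 4, 5 and 7, with its lowest level on day 7 rather than day 1. That place is held by a slim margin, since day 7 and day 1 had nearly equal values.

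Bub3, the WD-repeat partner of the Bub kinases, had 2498 in mock and 3969, 3977, 2187, 2660.2 and 1671 on days 1, 3, 4, 5 and 7. With the deposited size factors, days 1 and 3 were at the same level within counting error, with an interval of the log2 ratio of -0.06 to 0.07. Equal library totals moved the median ratio of all expressed genes by 0.13 in that comparison, which is beyond the interval. Bub3 varied least of the 50, by 1.24 on the log2 scale between its highest and lowest library, and its correlation with the median of the others was r = 0.21 over the 6 libraries. Its ratio of day 5 to mock, at 0.09, changed sign with equal library totals and with centring on the median gene, while those of days 1 and 3 stayed above 0 under every scaling tried. Pttg1, which encodes securin, the inhibitor of the enzyme that parts sister chromatids, had 459 in mock and 659.6, 1189, 203, 387 and 206 on days 1, 3, 4, 5 and 7. It was above mock on day 1 (0.51, interval 0.34 to 0.70) and near mock on day 5 (-0.24), with r = 0.55. Day 5 exceeded day 7 in Pttg1 and in Bub3, in contrast to 45 members whose level was higher on day 7. Mad2l1, Ncaph and Smc2, which were slightly lower on day 7 than on day 5, changed sign with equal library totals.

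The chromosomal passengers Birc5 and Aurkb guide the correction of faulty attachments and the start of cytokinesis. Birc5, which encodes survivin, had 852 in mock and 61.5, 3281, 146, 78.0 and 237 on days 1, 3, 4, 5 and 7. With the pseudocount its range was the widest of the 50, at 5.38 on the log2 scale. Without it, the step of Birc5 from day 1 to day 3 was 53.3-fold, and that of Plk1 was wider, at 83.6-fold. Aurkb, the kinase of that complex, had 732 in mock and 124, 1881, 181, 241 and 344 on days 1, 3, 4, 5 and 7. Both were at least 2-fold lower than mock on days 1, 4, 5 and 7, although Aurkb, at -1.05 on day 7, lay near the limit.

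Of 10 centromere and kinetochore genes 9 were at least 2-fold above mock on day 3 (median 1.69), 9 below it on day 1 (median -2.15), 9 on day 4 (median -1.58) and 10 on day 5 (median -1.87). Ndc80, the microtubule-binding core of the outer kinetochore, had 283 in mock and 46.8, 1045, 28.5, 114 and 117 on days 1, 3, 4, 5 and 7. Its day 4 value was the lowest of its course and rested on 22 reads, and it was the only member of the 50 at least 2-fold higher on day 5 than on day 4 (1.52, interval 1.34 to 2.74). Its partners in the Ndc80 complex differed in that step, with Nuf2 at -0.38, Spc24 at -0.26 and Spc25 at -0.20. On day 3 the 4 subunits were alike, between 1.68 for Spc25 and 1.93 for Nuf2 against mock.

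Cenpa, the histone H3 variant that marks the centromere, had 1263 in mock and 341, 2905, 1566, 584 and 591 on days 1, 3, 4, 5 and 7. On day 4, when 49 of the 50 genes were below mock, Cenpa was above it, by 0.31 with an interval of 0.20 to 0.42. It was then 1 of the 3 members at least 2-fold lower on day 5 than on day 4, at -1.39. Cenpf, a large kinetochore protein of G2 and mitosis, took the common course with 291 in mock and 19.7, 787, 67.3, 45.8 and 129 on days 1, 3, 4, 5 and 7. Cenpe, the kinesin of the kinetochore, Knstrn, a kinetochore and spindle adaptor, and the inner kinetochore genes Cenpk and Cenpm were all above mock on day 3, by 1.33, 1.74, 0.89 and 1.69. Cenpk had few reads, between 8 on day 5 and 207 on day 3.

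**Figure D4:**
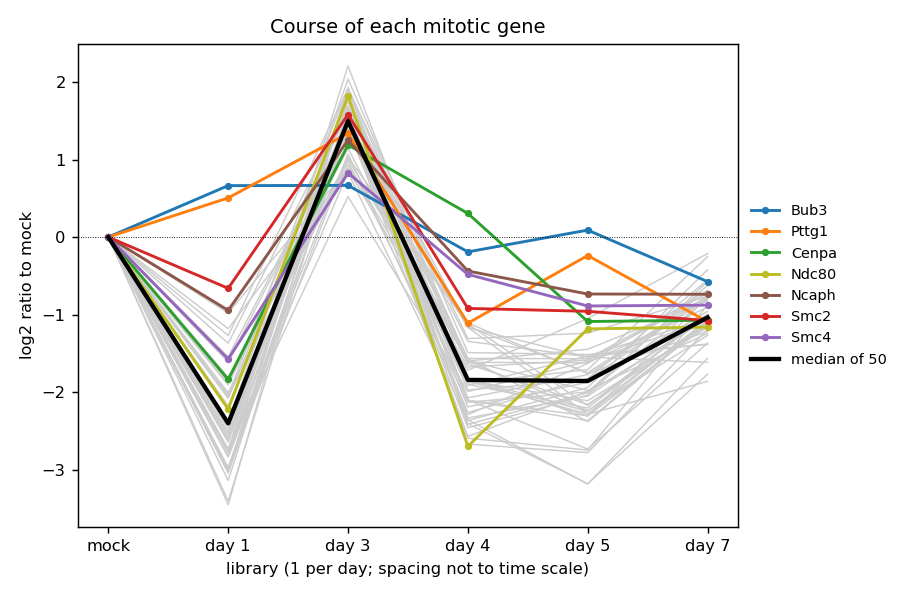
Log2 ratio of each of the 50 genes to mock in each library (grey lines), with the median of the 50 in black and 7 genes in colour that were picked after their values were seen. Bub3 and Pttg1 are above mock on day 1, Cenpa on day 4, and Ndc80 is lowest on day 4.

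All 9 mitotic kinesins were at least 2-fold below mock on days 1, 4 and 5, and 6 of 9 were at least 2-fold above it on day 3 (median 1.32). Kif11, the bipolar motor that pushes the spindle poles apart, had 253 in mock and 75.1, 718, 46.6, 61.4 and 139 on days 1, 3, 4, 5 and 7. Kif2c, which takes microtubules apart at the centromere, had 269 in mock and 32.0, 747, 29.8, 24.96 and 139 on days 1, 3, 4, 5 and 7, and had the largest ratio of day 7 to day 5 among the 50, 1.87. Kif20a and Kif23 work in the central spindle, and they differed on day 3, with Kif20a at 1.54 and Kif23 at 0.52 against mock. Kif23 had 712 in mock and 91.1, 1031, 166, 223 and 329 on days 1, 3, 4, 5 and 7, the smallest excess of day 3 over mock of the 50 genes, while its low level on day 1 (-2.75) was like that of the others. Kif22, the chromosome arm motor, was at 1.62 on day 3 and -2.78 on day 1, Kif4 at 0.98 and -2.01, Kif15 at 1.32 and -1.91, and Kif20b at 1.01 and -1.87. Kifc1, the minus-end motor, was the least abundant in reads, with 47 in mock, 137 on day 3 and 1 on day 4. The single read of day 4 gives a log2 ratio to mock without pseudocount of -5.12, with an interval of -10.5 to -2.57.

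Genes of spindle microtubules were 4 of 4 at least 2-fold above mock on day 3 (median 1.57). Tpx2, which activates Aurka and nucleates microtubules, was at 1.57, Nusap1, which bundles them, at 1.84, and Hmmr, a spindle protein also known as a hyaluronan receptor, at 1.57. Stmn1, the tubulin-sequestering protein stathmin, had 3082 in mock and 377, 8773, 1365, 618 and 835 on days 1, 3, 4, 5 and 7. It was also among the 3 members at least 2-fold lower on day 5 than on day 4 (-1.12), and the furthest below mock on day 7 (-1.86). The share of reads on the members without Stmn1 and Bub3, the 2 with the most reads, was 1189 RPM in mock, 3144 on day 3 and 213 on day 1.

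Cytokinesis genes were 4 of 4 at least 2-fold below mock on days 1, 4 and 5 and 3 of 4 above it on day 3. Prc1, the bundler of the central spindle, had 286 in mock and 32.0, 875, 37.5, 56.2 and 187 on days 1, 3, 4, 5 and 7. Racgap1, which with Kif23 forms centralspindlin, had 981 in mock and 122, 2083, 186, 305 and 602 on days 1, 3, 4, 5 and 7, and Ect2, the exchange factor that centralspindlin recruits, was under 2-fold on day 3 at 0.93. Anln, the scaffold of the contractile ring, was at 1.49 on that day. Racgap1 at 1.07 and Kif23 at 0.52, the centralspindlin pair, were thus both below the median of the 50 on day 3.

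Condensin genes were the group nearest to mock when the others were low, and only 2 of 5 were at least 2-fold lower than mock on day 4 and again on day 5. The core ATPase subunits Smc2 and Smc4 serve both condensin I and condensin II. Smc2 had 586 in mock and 364, 1790.3, 301, 293 and 269 on days 1, 3, 4, 5 and 7, and Smc4 had 1311 in mock and 428, 2343, 934, 699.9 and 705 on days 1, 3, 4, 5 and 7. Of the condensin I subunits, Ncaph had 429 in mock and 214, 1044, 312, 251 and 250.004 on days 1, 3, 4, 5 and 7. These 3 genes were at -0.92, -0.48 and -0.44 against mock on day 4, whereas the other condensin I subunits, Ncapg at -2.10 and Ncapd2 at -2.37, were below the median of the 50. Ncapg had 198 in mock and 20.9, 573, 32.3, 23.9 and 84.5 on days 1, 3, 4, 5 and 7.

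Members whose course followed the rest closely were counted by their correlation with the median of the other members over the 6 libraries, as a description. At r of at least 0.95 there were 38 of 50 members, and the other 12 were Mki67, Bub3, Mad2l1, Pttg1, Cenpa, Cenpk, Spc25, Kifc1, Stmn1, Ncaph, Smc2 and Smc4. Of the other 9952 expressed genes 78 (0.784%) reached that value against the median of the 50. All these correlations share the same 6 libraries and their size factors.

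A further list held 65 mitotic genes outside the 50 members, of which 50 were expressed, and 34 of these were at least 2-fold higher on day 3 than in mock and 0 lower (median 1.16). On day 1, 33 of the 50 were at least 2-fold lower than mock (median -1.53), on day 4 31 and on day 5 33, with 0 higher on each of these days. Of all expressed genes 3.73% were that much higher on day 3, and 9.58%, 8.11% and 6.4% lower on days 1, 4 and 5. Those with the largest day 3 ratio were Cdca3, a mitotic entry factor, at 1.99, the kinase gene Pbk at 1.94, Fam64a at 1.59 and Cdca2, which recruits a phosphatase to chromosomes, at 1.56. Cdca3 had 356 in mock and 33.2, 1473, 95.7, 39.5 and 128 on days 1, 3, 4, 5 and 7. In all, 31 of the 50 (62%) reached r of 0.95 with the median of the members. The lowest r were those of Mis12 (-0.42), Zwint (0.09) and Espl1 (0.55), named after their values were seen. Mis12 and Zwint, both kinetochore genes, were above mock on day 1, by 0.79 and 0.90, and Espl1, which encodes separase, was at -0.18 on day 3.

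Genes that mitosis uses but that resting cells also express had flatter courses, the tubulins less so than the others on days 4, 5 and 7. Among the expressed genes, between 1.96% and 6.68% were at least 2-fold higher than mock and between 5.71% and 9.58% lower, by day. Counts of 0 or 1 gene in the short lists of this paragraph were near those shares. The 16 genes of the anaphase-promoting complex and its regulators had a median of 0.42 on day 3 against mock, with 2 at least 2-fold higher, the inhibitor gene Fbxo5 at 1.14 and Anapc13 at 1.05. Against mock, 1 of the 16 was lower on day 1, Fbxo5 at -2.19, and 1 higher, Anapc10 at 1.10. Of 9 cohesin genes 0 were past 2-fold against mock on day 1, 3, 4, 5 or 7, and their day 3 median was 0.09. Of 9 tubulin genes 0 were past 2-fold on day 1 or day 3, while 4 were lower on day 4, among them Tuba1b at -1.47 and Tubb5 at -1.40. On day 5, 1 tubulin gene was lower than mock by that much, and on day 7, 3 were. Their medians on days 4, 5 and 7 were -0.89, -0.69 and -0.86. From day 3 to day 4, 5 of the 9 were at least 2-fold lower, against 5.89% of expressed genes. In contrast to these, a reference list of 15 DNA replication genes had 7 higher on day 3 (median 0.90), led by the ribonucleotide reductase gene Rrm2 at 1.85, and 9 lower on day 1 (median -1.05), 13 on day 4 (median -1.52) and 9 on day 5 (median -1.33).

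Markers of other cells differed in whether they moved with the mitotic genes. Summed over 8 fibroblast and stellate cell markers the level was 3072 in mock and 517, 15691, 798, 2044 and 8418 on days 1, 3, 4, 5 and 7. The sum was thus also highest on day 3, but on day 7 it was above mock, where the mitotic genes were below it. Single genes differed: Col1a1, Col1a2, Col3a1, Lum and Postn were highest on day 3, whereas Dcn, Pdgfra and Pdgfrb were highest on day 7. Dcn had 1408 on day 3 and 2268 on day 7. Over 7 duct cell markers the sum was 595 in mock and 1117, 3624, 602, 204 and 1158 on days 1, 3, 4, 5 and 7. The keratin genes and Epcam were highest on day 3, whereas Sox9 and Cftr were highest on day 7, Cftr with 11 reads. Over 8 erythroid genes the sum was 1725 in mock and 130.4, 3619, 326, 39.5 and 1276 on days 1, 3, 4, 5 and 7, in the order day 3, mock, day 7, day 4, day 1 and day 5. Most of that sum was haemoglobin, and Klf1, a transcription factor of erythroid precursors, had at most 4 reads in any library. Alas2, the haem synthesis enzyme of erythroid precursors, had 87 reads in mock and 11, 166, 4, 6 and 107 on days 1, 3, 4, 5 and 7, highest on day 3 and low on days 1, 4 and 5 like the mitotic genes. Hbb-bt, a minor haemoglobin gene in these counts, had 0 reads on days 1 and 5, and Slc4a1, the anion exchanger of red cells, had 0 on day 1.

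T, NK and B cell markers did not peak on day 3. Their sums were 2444 in mock and 554, 431, 2066, 1624 and 3856 on days 1, 3, 4, 5 and 7 for 7 T cell genes, 2927 in mock and 929, 187, 448, 1608 and 6852 on days 1, 3, 4, 5 and 7 for 6 NK cell genes and 6283 in mock and 1877, 689, 1047, 1275 and 5512 on days 1, 3, 4, 5 and 7 for 6 B cell genes. For T and NK cells and for B cells the sum was lowest on day 3. Most of the T cell sum of day 4 was Cd28, at 1307. On that day the 6 expressed T cell genes had a median log2 ratio to mock of -1.46. Of these 6, 4 were at least 2-fold lower and 1 higher, against 8.11% of expressed genes lower and 3.31% higher. Over 9 genes of neutrophils and their precursors the sum was 4076 in mock and 3521, 899, 1065, 204 and 2037 on days 1, 3, 4, 5 and 7. Elane and Ctsg, which mark precursors, had 0 reads on day 5, but at most 24 and 6 in any library. Prtn3, which also marks precursors, had log2 ratios to mock of 0.67, -0.14, -1.84, -2.69 and -0.72 on days 1, 3, 4, 5 and 7. The fall of the sum on day 3 lay mostly in S100a8, S100a9, Ngp and Ltf, at -1.47, -2.00, -4.36 and -3.14 against mock. Sums of 6 dendritic cell markers were 4304 in mock and 821, 1401, 5414, 2216 and 7014 on days 1, 3, 4, 5 and 7, and those of 5 endothelial markers 401 in mock and 1531, 235, 208, 328 and 528 on days 1, 3, 4, 5 and 7. Most of the endothelial sum of day 1 was Kdr, at 1320. Acinar markers, 6 genes, summed to 403198 in mock and 32778, 48222, 16321, 18968 and 487951 on days 1, 3, 4, 5 and 7. The part of fibroblasts, duct cells and erythroid cells in the day 3 level of the mitotic genes was not tested.

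**Figure D5:**
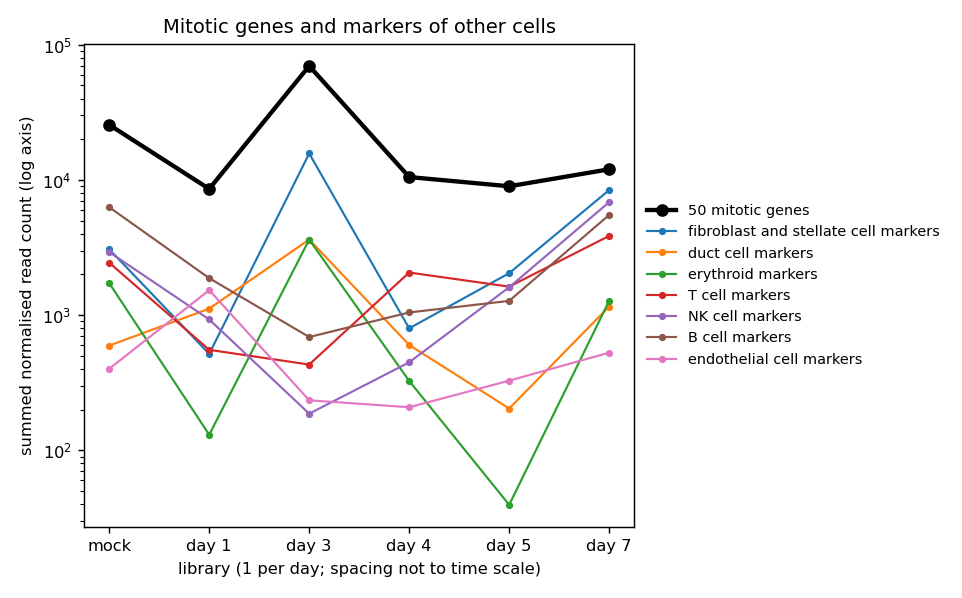
Summed normalised read count (log axis) of the 50 mitotic genes and of marker lists of other cells in each of the 6 libraries. The sums of fibroblast, duct and erythroid markers share the day 3 maximum of the mitotic genes, though single genes of these lists peak elsewhere. The sums of T, NK and B cell markers have their minimum on day 3.

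Because the deposited values give back whole reads, a count test was also run over all 14106 genes with at least 60 reads, taking the 5 caerulein libraries of different days as replicates against mock. By edgeR's quasi-likelihood test 0 of the 50 members and 0% of all genes were called at an adjusted p of at most 0.05, while 102 genes, 0 of them members, had an unadjusted p under 0.05. DESeq2 called 0 members as well, with 2 genes called in all (0.0143%), and left 20 members without an adjusted p. That test asks for a shift shared by all days and sets the high level of day 3 against the low levels of the other days within 1 group. Mock is a single library, assumed in the test to vary like the others. With day 3 left out, 33 of the 50 members and 219 of all 14106 genes had an unadjusted p under 0.05 by edgeR, and 0 passed after adjustment. With day 1, 4, 5 or 7 left out instead, 0 members had an unadjusted p under 0.05.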

How the data were processed

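The deposited table holds a normalised signal per gene for 31617 genes and 6 libraries, that is, gene counts which the authors divided by 1 size factor per library. From the steps between its values 100% came out as whole reads within a tolerance of 0.01 reads. Per the labels' protocols, RNA came from sorted macrophages lysed in Trizol and libraries from an Illumina RNA kit. Per the submitters' processing notes, the tool list holds Bowtie 0.12.2 and the build list mm8. The sources used here do not give the counter, its annotation or its use of strand, and reads of overlapping genes and of pseudogenes could be split. The promoter coordinates are those of RefSeq on GRCm38.p6 and were not used with the table's build. The identifiers of all 50 members had an entry among mouse gene names.

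Ratios are differences of log2(value + 17.8), where the pseudocount is 1 RPM of the mean column total, and background shares are over the 10000 genes with the highest mean. Intervals are 95% Clopper-Pearson intervals of the ratio of reads. A floor of 3 reads was worth 2.11 to 3.88 normalised units. Groups came from the sample titles. The members, gene lists and tests were chosen with earlier results of these data known. All members may be named, and of each pathway list up to 4 expressed genes with the largest absolute log2 ratio of day 3 to mock. Lin54, E2f3, E2f7, E2f8, Mis12, Zwint and Espl1 were named beyond that rule after their values were seen. The values of 1 marker gene are not reported here. Count tests used edgeR 4.0.16 with TMM scaling and DESeq2 1.42.0 in R 4.3.3. Python 3.11.15 served for all else, with scipy 1.17.1 for intervals, pandas 2.3.3 and numpy 2.4.6 for tables and matplotlib 3.10.9 for plots. The ratios, intervals and the edgeR test were tested on simulated data. Alternatives were other pseudocounts (1, and 5 times the main one), other scalings, and for the count test another tool, scaling and filter and leaving out each caerulein library.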

Additional observations from a re-analysis of the deposited data

How the results depend on the processing

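With 1 library per day, leaving out a library removes its comparison. No paired analysis was possible because each group has a single library. Of 116 counts recomputed under the alternatives 108 stayed within 1.5 times the reported count, and no called ratio of a member changed sign. Of 54 medians of the members 9 moved by more than the median member's counting error, and of 2700 ratios of single members 420 by more than their own. The median ranged from -2.78 to -1.60 for day 1 against mock, 1.28 to 1.55 for day 3 against mock and 2.85 to 4.34 for day 3 against day 1. The 8 that moved belong to 3 comparisons. For day 7 against mock, 26 members lower became 10 with equal library totals, 10 with upper-quartile scaling and 8 with a pseudocount 5 times as large. For day 7 against day 5, 22 members higher became 34 with equal library totals and 2 with a pseudocount 5 times as large. For day 5 against day 4, 1 member higher became 2 with a pseudocount of 1 and 0 with one 5 times the main value, and 3 lower became 5 with a pseudocount of 1. A larger pseudocount shrinks the ratios of low genes by construction. The cause of the shifts with scaling was not tested, but equal library totals moved the median ratio of all expressed genes by 0.27 for day 7 against mock and by 0.41 for day 7 against day 5, and by -0.23 for day 1 against mock. Relative to that median, the members' median for day 7 against mock was -0.93 both as reported and with equal totals. The counts of days 1, 3, 4 and 5 against mock ranged over 41 to 47, 39 to 45, 35 to 46 and 38 to 47. In the count test of 5 caerulein libraries against mock the number of members called was 0 under each alternative, leaving out each caerulein library included. Depth limits the low libraries most: on day 4 Kifc1 had 1 read, and the interval of a ratio to mock reached at the median member 0.42 to either side on day 4 and 0.50 on day 1, against 0.17 on day 3.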

Other observations

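Ratios between 2 members within a library do not depend on a size factor of that library, though quantile normalisation can change them. The pairs below were picked after the values were seen, the ratios are of reads and not per length, and only their change between libraries can be read. Smc4 over Ncapg was 6.63 in mock and 4.09 on day 3, but 20.5, 28.9 and 29.3 on days 1, 4 and 5 and 8.35 on day 7. Smc2 over Ncapg was 2.97 in mock, 3.12 on day 3 and 3.18 on day 7, and 17.4, 9.32 and 12.3 on days 1, 4 and 5. Cenpa over Cenpf was 4.34 in mock, 3.69 on day 3 and 4.58 on day 7, and 17.3, 23.3 and 12.8 on days 1, 4 and 5. Pttg1 over Cdc20 was 0.785 in mock, 0.679 on day 3 and 0.621 on day 7, and 6.87, 1.495 and 2.57 on days 1, 4 and 5. Aurka over Aurkb had no such split, at 0.395, 0.605 and 0.474 in mock and on days 3 and 7 and 0.881, 0.586 and 0.466 on days 1, 4 and 5. Ccnb1 over Ccnb2 was 0.494 in mock and between 0.689 and 0.959 in the caerulein libraries.

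The table lists 2 pseudogenes named after members. Ccnb2-ps had between 2 and 7 reads per library and Kif4-ps between 3 and 7. Neither had its highest level on day 3, where Ccnb2-ps had 6 reads and Kif4-ps 5.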
